A study of Mus musculus with 16 samples.

Results

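The 80 genes described here encode the proteins of the cytoplasmic ribosome in the mouse. They were taken by symbol from the 55421 genes of the count tables. The choice took every protein-coding gene whose GENCODE M21 symbol is Rpl or Rps followed by a number, with an optional letter or x, and added Rplp0, Rplp1, Rplp2 and Rpsa. Kinases of the Rps6k family and pseudogenes were left out, and the rule uses symbols and no measured value. Of the 80 genes, 49 encode proteins of the large subunit and 31 of the small subunit. They are spread over 19 chromosomes, with 4 on X, and their coding stretches have a median length of 462 bases (138 to 1257). In 77 of them every library held at least 487 counts. The other 3 are Rpl3l, Rpl10l and Rpl39l, paralogs known for expression in muscle or testis.

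RNA-seq was run on 16 libraries, 2 in each of 8 groups, from C57BL/6 mice on a diet that the labels write as HFD. The RNA is labelled as that of macrophages from WAT or from liver, although the protocol says that the tissue itself went into liquid nitrogen. In each tissue the groups were CKO mice on the antagonist NOX_6_18, CKO mice on vehicle, fl/fl mice on NOX_6_18 and fl/fl mice on vehicle. CKO is Lyz2_cre+/_GPR132fl/fl, where Cre recombinase comes from Lyz2, a gene of myeloid cells that also includes neutrophils. The fl/fl mice (GPR132fl/fl) carry the same floxed Gpr132 alleles without Cre. The labels give no age, dose or length of treatment. They do not say whether the 2 libraries of each group are from different animals, so p-values measure only the spread between libraries, which may be technical.

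Ribosomal proteins assemble with ribosomal RNA into a small subunit, which reads the messenger RNA, and a large subunit, which joins the amino acids. Most are made in equal numbers, and their messenger RNAs are among the most abundant of any cell. Those messenger RNAs begin with a run of pyrimidines, the terminal oligopyrimidine (TOP) tract, through which the kinase mTOR and the RNA-binding protein Larp1 control their translation. Copies of these genes, inserted by reverse transcription, are scattered through mammalian genomes, and a short read often cannot be assigned between a gene and its copy.

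The libraries held 48348395 to 58396991 counts in WAT and 45624957 to 60761705 in liver, of which mitochondrially encoded genes took 2.31 to 3.61% in WAT and 43.0 to 44.9% in liver. Levels are given as CPM, a gene's count relative to the library's total after TMM scaling within a tissue, unless another scale is named. Gpr132, the floxed gene, had 56.4 and 59.1 CPM in WAT of CKO mice on NOX_6_18, 35.6 and 64.5 in CKO mice on vehicle, 60.3 and 60.1 in fl/fl mice on NOX_6_18 and 72.4 and 69.7 in fl/fl mice on vehicle. The CKO difference in WAT did not pass the test on vehicle (log2 fold change -0.51, SE 0.22, adjusted p = 0.115 in edgeR) or on NOX_6_18 (-0.06, adjusted p = 1). In liver it passed on vehicle (-1.32, adjusted p = 0.0162), and on NOX_6_18 the value was 0.47 (adjusted p = 1.00). Liver levels were 2.81 and 2.41 CPM in CKO mice on NOX_6_18 and 1.86 and 1.46 in CKO mice on vehicle. They were 2.13 and 1.64 CPM in fl/fl mice on NOX_6_18 and 4.26 and 4.04 in fl/fl mice on vehicle. Without Cre, liver of fl/fl mice on NOX_6_18 was also below vehicle (-1.13, adjusted p = 0.0313 in edgeR). The liver call thus does not set CKO mice apart from fl/fl mice on NOX_6_18. The counts do not say which exons were read, so this is a limited check of the labels. In cell type markers the 2 fl/fl vehicle libraries of WAT stood apart from the other 6. The 11 spermatid markers summed to 971 to 1069 CPM in the other 3 WAT groups and to 29.7 to 34.8 CPM in fl/fl vehicle WAT, and 5 Leydig cell markers to 256 to 304 CPM in the other 3 groups and 25.5 to 26.6 CPM in fl/fl vehicle WAT. The 10 macrophage markers summed to 7649 to 8138 CPM in the other 3 groups and 10717 to 11544 CPM in fl/fl vehicle WAT. The 5 fibroblast markers summed to 8775 to 8975 CPM in the other 3 groups and 16768 to 17098 CPM in fl/fl vehicle WAT. None of these markers was at 0 in both libraries of any WAT group. In liver the 2 fl/fl vehicle libraries stood apart as well. The 10 macrophage markers summed to 2824 to 2869 CPM in the other 3 liver groups and 2650 to 2659 CPM in fl/fl vehicle liver. The 6 Kupffer cell markers summed to 1539 to 1580 CPM in the other 3 and 1264 to 1306 CPM in fl/fl vehicle. The 8 hepatocyte markers summed to 2911 to 3003 CPM in the other 3 and 2623 to 2769 CPM in fl/fl vehicle. The 6 neutrophil markers summed to 83.1 to 91.7 CPM in the other 3 liver groups and 12.02 to 15.4 CPM in fl/fl vehicle liver. The 5 erythroid markers summed to 4095 to 4505 CPM in the other 3 liver groups and 7660 to 8079 CPM in fl/fl vehicle liver, and 8 lymphocyte markers to 19.1 to 23.1 CPM in the other 3 and 41.3 to 43.3 CPM in fl/fl vehicle.

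The start sites of ribosomal protein genes show where the TOP tract lies. Those of Rps9 and Rpl35 are printed as examples chosen for their runs, and the others belong to members that recur in the results, with or without a run. RefSeq promoters (GRCm38.p6, 250 bases before to 50 after the annotated start) matched 60 of the 80 symbols. Each line gives 15 bases on either side of the boundary at the annotated start, 5′ to 3′ on the gene's strand, with the longest run of at least 6 pyrimidines (C or T, including a T) in capitals where the stretch from 10 bases before to 15 after the boundary holds such a run:
Rps9, chr7:3704026-3704055, plus strand: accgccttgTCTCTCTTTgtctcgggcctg
Rps6, chr4:86857353-86857382, minus strand: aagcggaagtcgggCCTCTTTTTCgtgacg
Rpl14, chr9:120571502-120571531, plus strand: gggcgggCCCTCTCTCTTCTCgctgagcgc
Rpl35, chr2:39005117-39005146, minus strand: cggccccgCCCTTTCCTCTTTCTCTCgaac
Rplp2, chr7:141447636-141447665, plus strand: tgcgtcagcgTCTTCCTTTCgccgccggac
Rpl7a, chr2:26910792-26910821, plus strand: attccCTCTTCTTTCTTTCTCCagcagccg
Rpl39, chrX:37085208-37085237, minus strand: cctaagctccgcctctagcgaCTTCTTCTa
Rps25, chr9:44407699-44407728, plus strand: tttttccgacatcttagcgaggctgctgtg
Rpl39l, chr16:10170213-10170242, plus strand: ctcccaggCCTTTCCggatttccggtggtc
Rpl10, chrX:74270801-74270830, plus strand: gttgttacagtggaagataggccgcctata
Rpl3l, chr17:24727811-24727840, plus strand: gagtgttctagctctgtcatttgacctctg
Rpl10l, chr12:66284387-66284416, minus strand: tttggcctccattttgcggctggcggtggg

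A pyrimidine run of this kind was found at the start of 33 of the 60 matched members (55%), against 27.3% of the 27025 genes with a RefSeq promoter. It spans the start in Rps9, Rps6, Rpl14, Rpl35, Rplp2 and Rpl7a. In Rps25, Rpl10, Rpl10l and Rpl3l no run was found within the stretch searched. The printed line of Rps25 opens with a pyrimidine run that lies mostly before that stretch. In Rpl7a the run continues upstream of it, in small letters. Letters matched by ETS-family factors, CCGGAAG on either strand anywhere in the promoter, were present in 41.7% of members and 9.93% of all genes. The core read by YY1, AAGATGGC on either strand, was present in 8.33% of members and 3.19% of all genes. A TATA box, TATAAA on the gene's strand in the 40 bases before the start, was found in 0 members and in 2.78% of all genes. Where a gene has several RefSeq starts, a match in any of them was counted. These are letter matches and not sites.

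Levels among the members were compared per kilobase of annotated exon. In WAT, Rplp1 was highest at 817 CPM per kilobase (733 to 1044 over the 8 libraries), followed by Rps15 at 528 (467 to 656) and Rplp0 at 492 (451 to 569). Rplp0 and Rplp1 form the stalk that recruits elongation factors. The ranges of Rps15 and Rplp0 overlapped. In liver the order was again Rplp1 at 293 (280 to 311), Rps15 at 230 (203 to 247) and Rplp0 at 161 (151 to 168), followed by Rps6 at 150 (140 to 157). The median over the members was 117 CPM per kilobase in WAT and 46.8 in liver. The lowest members in both tissues were Rpl3l, Rpl10l, Rpl39l, Rpl21 and Rps15a. Rpl3l, the muscle paralog, was lowest in WAT at 1.0 CPM per kilobase, and Rpl21 was low in both tissues, at 12.2 in WAT and 4.1 in liver. This order depends on the length used. Per kilobase of coding length Rpl41, the shortest ribosomal protein, came first in both tissues (1779.6 in WAT and 571 in liver). In each tissue 2 of the 5 highest and 4 of the 5 lowest genes were shared with the order by exons. Rps15a was not among the lowest by coding length, at 465 in WAT and 191 in liver, against medians of 476 and 188. Reads of Rpl21 fell mostly on its copies, which held 89.8% of the summed counts, so its own low level is uncertain.

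The share of a library's counts that fell on the 80 genes was higher in every WAT library than in any liver library. It was 1.90 and 1.93% in WAT of CKO mice on NOX_6_18, 2.08 and 1.91% in CKO mice on vehicle, 1.86 and 1.95% in fl/fl mice on NOX_6_18 and 2.23 and 1.99% in fl/fl mice on vehicle. The highest share belonged to a fl/fl vehicle library, but the other fl/fl vehicle library lay below 1 CKO vehicle library, so the groups overlapped. All 8 liver libraries lay between 0.761 and 0.810%. Against counts outside mitochondrially encoded genes, the range was 1.93 to 2.29% in WAT and 1.35 to 1.42% in liver. The ratio of large-subunit to small-subunit counts stayed between 1.40 and 1.53 over all 16 libraries.

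**Figure D1:**
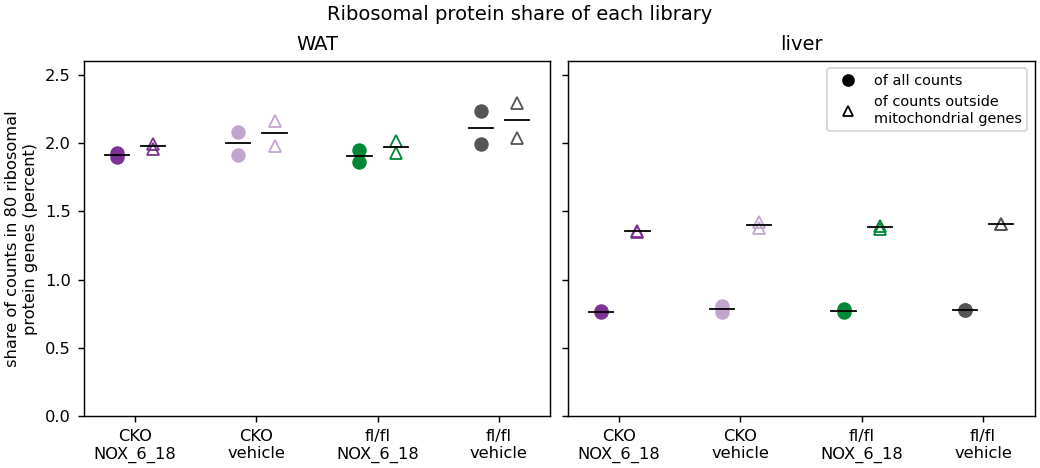
Share of each library's counts that fell on the 80 ribosomal protein genes (percent, vertical axis), for the 4 groups of WAT and of liver. Circles are shares of all counts and triangles shares of counts outside mitochondrially encoded genes, each point is 1 library, and lines are group means. WAT shares sit between 1.86 and 2.23% and liver shares between 0.761 and 0.810%.

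The first comparison asked what NOX_6_18 did in WAT of mice with intact Gpr132. Ribosomal protein genes were lower in fl/fl mice on NOX_6_18 than in fl/fl mice on vehicle: 53 of the 80 fell and 3 rose (edgeR, adjusted p under 0.05), and 24 did not pass. Of the 25871 genes tested, 13.2% fell and 24.6% rose. The median log2 fold change of the members was -0.31, against 0.12 over all genes tested, and 75 of the 80 members had a negative value. In 71 members both NOX_6_18 libraries lay below both vehicle libraries, which held for 28.5% of all genes. Both subunits took part, with 29 of 49 large-subunit and 24 of 31 small-subunit genes lower.

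The largest falls under the naming rule were those of Rps25, Rps27a, Rpl10a, Rpl41 and Rpl37a. Rps25, a small-subunit protein that several viral internal ribosome entry sites need, had 121 and 121 CPM in fl/fl mice on NOX_6_18, against 160 and 206 CPM in fl/fl mice on vehicle. Its log2 fold change was -0.60 (SE 0.20, adjusted p = 0.0479 in edgeR), and it only just passed. Rps27a is made as a fusion with ubiquitin. It had 152 and 171 CPM on NOX_6_18 and 268 and 213 CPM on vehicle (log2 fold change -0.58, SE 0.11, adjusted p = 0.0045). Rpl10a, a protein of the L1 stalk, had 176 and 235 CPM on NOX_6_18 and 334 and 278 CPM on vehicle (-0.57, SE 0.16, adjusted p = 0.0243). The groups did not overlap in any of these genes, which the naming rule required, though the 2 libraries of a group differed widely. Rpl41 averaged 216 ± 8.6 CPM on NOX_6_18 and 306 ± 37 CPM on vehicle (SD, n = 2 each; -0.51, adjusted p = 0.0020 in edgeR). Rpl37a averaged 150 ± 16 CPM on NOX_6_18 and 209 ± 30 CPM on vehicle (SD, n = 2 each; -0.48, adjusted p = 0.0140 in edgeR).

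Members with known roles beyond these moved by smaller amounts. Rps6, the substrate of the S6 kinases, had 460 and 451 CPM in fl/fl mice on NOX_6_18, against 579 and 531 CPM in fl/fl mice on vehicle (log2 fold change -0.28, SE 0.065, adjusted p = 0.0098 in edgeR). The stalk protein Rplp0 had 757 and 797 CPM on NOX_6_18 and 944 and 845 CPM on vehicle (-0.20, adjusted p = 0.0403), the smallest fall called. Its partners Rplp1 (-0.37, adjusted p = 0.0089) and Rplp2 (-0.31, adjusted p = 0.0434) fell too. Rpsa, known as the laminin receptor as well as a small-subunit protein, had 491 and 507 CPM on NOX_6_18 and 684 and 599 CPM on vehicle (-0.36, adjusted p = 0.0081). Rps4x, encoded on X, fell by 0.36 on the log2 scale (adjusted p = 0.0050). Rps27l, a paralog of Rps27 induced by p53, had 28.3 and 31.2 CPM on NOX_6_18 and 44.1 and 38.2 CPM on vehicle (-0.47, adjusted p = 0.0068). Its parent Rps27 did not pass (-0.23, adjusted p = 0.131). In each of these genes, Rps27 included, both fl/fl NOX_6_18 libraries lay below both fl/fl vehicle libraries.

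The fall depends on the scaling and on single libraries. The TMM factors were 0.914 and 0.921 in fl/fl vehicle and 1.03 in each other WAT library. Scaled by library totals alone, 10 members fell and 3 rose, while 1585 of the 25871 genes tested fell and 7496 rose. The members' median was then -0.15, against 0.29 over all genes. The distance from the median of all genes was -0.43 under either scaling. A scaling factor per library shifts all genes nearly alike, so this distance cannot test the scaling. Without fl/fl NOX_6_18 replicate 1 the number that fell was 13, without replicate 2 it was 27, without fl/fl vehicle replicate 1 it was 26 and without replicate 2 it was 63. In bulk RNA, fewer cells of a type and less RNA per cell cannot be told apart. The marker sums above moved with the same contrast, with 9 of 10 macrophage markers and 4 of 5 fibroblast markers lower and 11 of 11 spermatid markers higher in fl/fl mice on NOX_6_18, and their part in the result was not tested.

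**Figure D2:**
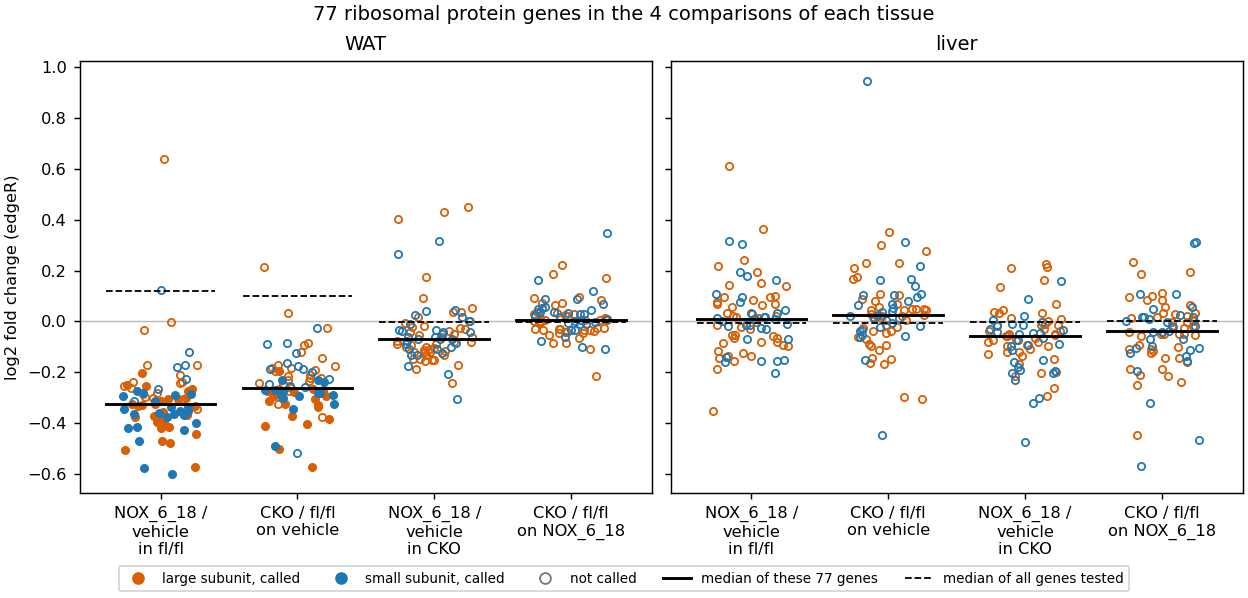
Log2 fold change (edgeR, vertical axis) of the 77 ribosomal protein genes that passed the filter in both tissues, in the 4 comparisons of each tissue. Each point is a gene, filled where the adjusted p was under 0.05, solid lines are medians of these genes and dashed lines medians of all genes tested. In WAT the 2 comparisons that use the fl/fl vehicle libraries lie below the dashed lines at 0.12 and 0.10, and the other comparisons centre near 0.

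The 3 members that rose are paralogs of other members. Rpl10l stands in for the X-linked Rpl10 in male germ cells, Rpl39l is a testis paralog of Rpl39, whose product lines the exit tunnel, and Rpl3l replaces Rpl3, a protein of the peptidyl transferase centre, in heart and skeletal muscle. The coding stretches of Rpl39 and Rpl39l are printed whole because they show how the paralogs differ. Over 153 bases they differ at 23 positions, in capitals, and are 84.97% identical, so most reads can be told apart. Both are given 5′ to 3′ in GRCm38, with Rpl39 at chrX:37082520-37085402 on the minus strand and Rpl39l at chr16:10170226-10174911 on the plus strand:
Rpl39: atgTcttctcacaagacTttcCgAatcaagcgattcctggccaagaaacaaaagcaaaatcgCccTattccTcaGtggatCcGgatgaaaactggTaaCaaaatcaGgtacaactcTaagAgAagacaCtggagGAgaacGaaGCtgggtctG
Rpl39l: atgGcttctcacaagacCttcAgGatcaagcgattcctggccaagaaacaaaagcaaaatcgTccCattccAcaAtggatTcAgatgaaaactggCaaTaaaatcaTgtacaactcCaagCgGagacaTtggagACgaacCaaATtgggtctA

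Rpl10l had 18.7 and 22.3 CPM in WAT of fl/fl mice on NOX_6_18, against 0.317 and 0.472 CPM in fl/fl mice on vehicle. Its log2 fold change was 5.68 (SE 0.21, adjusted p = 3.4e-07 in edgeR). The CKO groups resembled fl/fl mice on NOX_6_18, with 19.6 and 19.4 CPM on NOX_6_18 and 21.1 and 18.3 CPM on vehicle. Rpl39l had 14.1 and 15.5 CPM in fl/fl mice on NOX_6_18 and 0.204 and 0.57 CPM in fl/fl mice on vehicle (log2 fold change 5.22, SE 0.32, adjusted p = 5.7e-06 in edgeR), with 15.3 to 17.4 CPM in the 4 CKO libraries. Rpl3l had 2.21 and 2.00 CPM in fl/fl mice on NOX_6_18 and 0.838 and 0.708 CPM on vehicle (1.44, SE 0.30, adjusted p = 0.0059). The direction of the parents was the opposite. Rpl10 fell (-0.42, adjusted p = 0.0058), as did Rpl39 (-0.41, adjusted p = 0.0130) and Rpl3 (-0.39, adjusted p = 0.0013). The coding identity of Rpl10 and Rpl10l was 84.74% and that of Rpl3 and Rpl3l 73.76%. The 8 spermatocyte markers summed to 442 to 479 CPM in the 6 WAT libraries with high Rpl10l and to 8.9 to 9.3 CPM in fl/fl vehicle WAT. The 6 skeletal muscle markers summed to 5.2 to 6.8 CPM in those 6 libraries and to 3.4 to 3.9 CPM in fl/fl vehicle WAT, and Myh4 was at 0 in all of these WAT libraries. The part of other cell types in these rises was not tested.

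**Figure D3:**
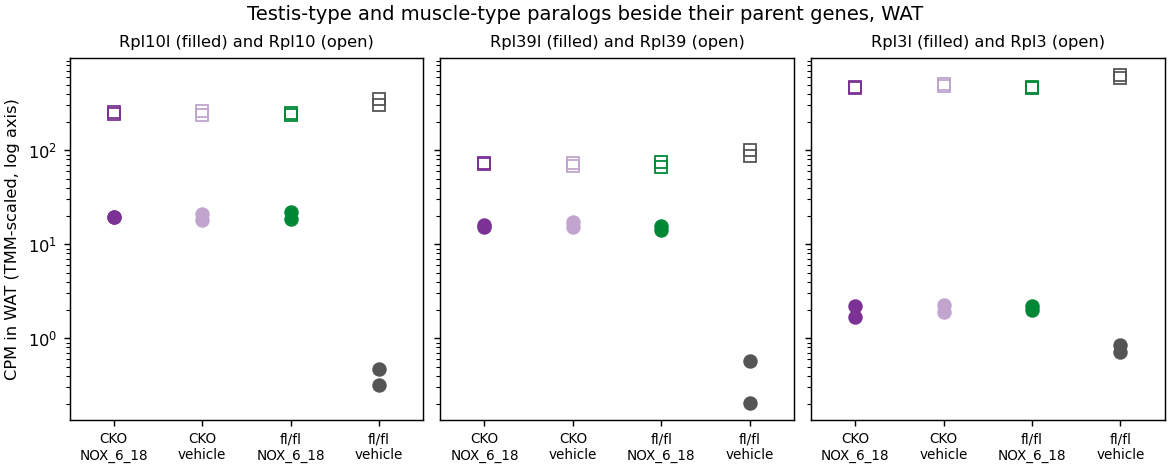
CPM in WAT (log axis) of the paralogs Rpl10l, Rpl39l and Rpl3l as filled circles and of their parents Rpl10, Rpl39 and Rpl3 as open squares, each point 1 library, for the 4 WAT groups. Rpl10l lies between 18.3 and 22.3 CPM in the first 3 groups and at 0.317 and 0.472 CPM in fl/fl mice on vehicle, while Rpl10 is highest in that group.

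The comparison of CKO with fl/fl mice on vehicle in WAT rests on the genotype labels, since the difference in Gpr132 itself did not pass the test there, and it uses the same fl/fl vehicle libraries. Of the 80 genes, 34 fell and 3 rose in CKO mice on vehicle, and 43 did not pass. Over all genes 12.4% fell and 24.4% rose. The members' median log2 fold change was -0.26, against 0.10 over all genes tested, and both CKO libraries lay below both fl/fl libraries in 60 members, against 27.6% of all genes. The fall included 19 of 49 large-subunit and 15 of 31 small-subunit genes.

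Rpl22, an RNA-binding protein that represses its own paralog Rpl22l1, had 71.0 and 99.2 CPM in WAT of CKO mice on vehicle, against 130 and 123 CPM in fl/fl mice on vehicle (log2 fold change -0.57, SE 0.16, adjusted p = 0.0253 in edgeR). Rpl26, known to bind the messenger RNA of p53, had 235 and 204 CPM in CKO mice and 336 and 284 CPM in fl/fl mice (-0.50, SE 0.12, adjusted p = 0.0134). Rps27a had 172 and 170 CPM in CKO mice and 268 and 213 CPM in fl/fl mice (-0.49, SE 0.11, adjusted p = 0.0098). None of these groups overlapped, which the naming rule required. Rpl39 (-0.41, adjusted p = 0.0135) and Rpl34 (-0.40, adjusted p = 0.0079) completed the 5 largest falls. Rps6, with 511 and 464 CPM in CKO mice and 579 and 531 CPM in fl/fl mice, did not pass (-0.19, adjusted p = 0.0551), nor did Rplp0 (-0.09, adjusted p = 0.309), whose groups overlapped. Rpl10l and Rpl39l rose with log2 fold changes of 5.62 and 5.37 (adjusted p = 3.5e-07 and 4.7e-06 in edgeR), and Rpl3l with 1.43 (adjusted p = 0.0064).

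This comparison was less stable than the treatment comparison. By library totals alone 0 members fell and 3 rose, with a median of -0.09 against 0.26 over all genes. Of the 25871 genes tested, 1457 then fell and 7358 rose. With only these 2 groups in the fit 9 members fell and 3 rose, while 2053 of 23423 genes fell and 5261 rose. Without CKO vehicle replicate 2 the number that fell was 4, without fl/fl vehicle replicate 1 it was 10 and without fl/fl vehicle replicate 2 it was 57. The markers moved here as well, with 9 of 10 macrophage and 4 of 5 fibroblast markers lower and 11 of 11 spermatid markers higher in CKO mice, and their part was not tested.

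The 2 WAT comparisons without the fl/fl vehicle libraries called no member. In CKO mice, NOX_6_18 against vehicle gave 0 of 80 calls by edgeR and 0 by DESeq2, with 0.0155% of all genes called by edgeR. The unadjusted p was under 0.05 for 2 members and for 898 of the 25871 genes tested. The members' median was -0.07, against 0.00 over all genes, and 30 members had both NOX_6_18 libraries below both vehicle libraries, against 18.1% of all genes. On NOX_6_18, CKO against fl/fl gave 0 calls by edgeR and 0 by DESeq2, with 0.0348% of all genes called by edgeR. Here the unadjusted p was under 0.05 for 0 members and for 618 of the 25871 genes. The members' median was 0.01, against 0.00 over all genes. Rpl22 had 104 and 128 CPM in CKO mice on NOX_6_18 and 71.0 and 99.2 CPM in CKO mice on vehicle, a value of 0.45 that did not pass (adjusted p = 1 in edgeR). Rps25 had 119 and 189 CPM in CKO mice on NOX_6_18 and 133 and 123 CPM in CKO mice on vehicle, so the groups overlapped. With the fl/fl vehicle libraries left out of the fit, a choice made after the data had been seen, both comparisons again gave 0 calls.

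Whether NOX_6_18 acted differently in the 2 genotypes was tested with the interaction, the change in CKO minus the change in fl/fl. In WAT it was positive and past the threshold for 9 members and negative for 3, while 6.71% of all genes were called positive and 18.6% negative. The members' median was 0.25, against -0.11 over all genes. Among the positive ones were Rpl22 (0.76, SE 0.23, adjusted p = 0.0436 in edgeR), Rps27a (0.51), Rpl31 (0.45), Rpl34 (0.44), Rpl10 (0.41), Rpl36a (0.38), Rps3 (0.34) and Rpl3 (0.31). The 3 negative ones were Rpl10l (-5.69), Rpl39l (-5.29) and Rpl3l (-1.55). For Rpl31, a protein near the exit of the peptide tunnel, the levels behind this were 215 and 224 CPM in CKO mice on NOX_6_18, 229 and 209 in CKO mice on vehicle, 207 and 211 in fl/fl mice on NOX_6_18 and 304.5 and 263 in fl/fl mice on vehicle. The fl/fl vehicle group alone stood out among these 4. Over all 25871 genes tested, scaling by library totals gave 790 positive and 5513 negative calls. By library totals 0 members were positive, and leaving out single libraries gave 0 to 34 positive members.

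In liver edgeR called no ribosomal protein gene in any of the 5 comparisons, among 77 tested, while DESeq2 called some in 3 of them. By edgeR the unadjusted p was under 0.05 for 7 members for NOX_6_18 in fl/fl mice, 9 for CKO on vehicle, 8 for NOX_6_18 in CKO mice, 10 for CKO on NOX_6_18 and 8 for the interaction. Over all 19515 genes tested it was under 0.05 for 3622, 3550, 792, 864 and 2735 in that order. DESeq2 called 0, 3, 0, 1 and 4 members in the same order. Over all genes DESeq2 called 947 higher and 515 lower for CKO on vehicle. It called 20 and 22 for CKO on NOX_6_18 and 259 and 570 for the interaction. At an adjusted p under 0.05, edgeR called 5.52, 5.8, 0.0359, 0.0359 and 2.45% of all genes. The medians of the members were 0.01, 0.02, -0.06, -0.04 and -0.07, and those of all genes lay within 0.01 of 0. In the same order without the interaction, 15, 12, 35 and 20 members had both libraries of the first group below both of the other. The reverse held for 18, 21, 3 and 10 members. Over all genes it was 4703, 4784, 3231 and 3211 below and 4703, 4683, 3174 and 3200 above. The smallest adjusted p was 0.0749, for Rpl28 in CKO mice on vehicle (0.23). Rps6 had 240 and 246 CPM in CKO mice on NOX_6_18, 248 and 241 in CKO mice on vehicle, 243 and 236 in fl/fl mice on NOX_6_18 and 222 and 231 in fl/fl mice on vehicle. So both fl/fl vehicle libraries lay below all other liver libraries in Rps6, though edgeR did not call it. Rplp0 ranged from 250 to 279 CPM over the 8 liver libraries. Other members varied more over the same libraries, with Rpl41 from 53.9 to 110.5 CPM, Rps27 from 10.6 to 58.5 CPM and Rpl7a from 24.1 to 58.2 CPM. The part of the macrophage, Kupffer cell, hepatocyte, neutrophil, erythroid and lymphocyte markers in the liver comparisons with fl/fl vehicle was not tested.

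Whether the WAT and liver changes differed was tested in a fit of all 16 libraries, with a contrast added after the first results were seen. For NOX_6_18 against vehicle in fl/fl mice, 22 members had a lower change in WAT than in liver and 2 a higher one, while 7.2% of all genes were lower and 7.51% higher. The members' median of the difference was -0.33, against 0.15 over all genes. The largest were Rpl31 (-0.54, SE 0.11, adjusted p = 0.0050 in edgeR), Rpl14 (-0.54, adjusted p = 0.0157) and Rpl36a (-0.53, adjusted p = 0.0126). For CKO against fl/fl on vehicle 15 members were lower and 2 higher, while 6.75% of all genes were lower and 7.44% higher, with medians of -0.26 over members and 0.13 over all genes. Rpl39 (-0.61, SE 0.13, adjusted p = 0.0085), Rpl26 (-0.60, adjusted p = 0.0185) and Rpl35a (-0.48, adjusted p = 0.0305), a gene mutated in Diamond-Blackfan anaemia, led this list. In both tests the 2 higher members were Rpl10l and Rpl39l, whose liver libraries were mostly at 0, so no fold is given. Both tests use the fl/fl vehicle libraries of each tissue. For Rpl14 the liver levels ran the other way, with 79.1 and 88.0 CPM in fl/fl mice on NOX_6_18 and 67.9 and 73.4 CPM in fl/fl mice on vehicle, while the WAT levels were 176 and 193 CPM on NOX_6_18 and 244 and 210 CPM on vehicle. By library totals the lower members numbered 2 and 0 in the 2 tests, and by DESeq2 36 and 29. Of all 26751 genes, library totals called 975 and 916 lower and 2495 and 2416 higher. DESeq2 called 2639 and 2494 lower and 3464 and 3448 higher. Single libraries moved these counts widely. For NOX_6_18 the number lower was 6 without WAT fl/fl NOX_6_18 replicate 1, 7 without WAT fl/fl vehicle replicate 1 and 39 without WAT fl/fl vehicle replicate 2, and leaving out each of the other 5 libraries gave 10 to 16. For CKO it was 2 without WAT fl/fl vehicle replicate 1, 28 without WAT fl/fl vehicle replicate 2 and 3 without WAT CKO vehicle replicate 2. It was 14 without WAT CKO vehicle replicate 1 and 4 to 6 without each liver library.

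Between tissues, ribosomal protein genes had higher levels in WAT of fl/fl mice on vehicle than in their livers. Here 67 of 80 were higher and 0 lower, against 21.6% and 16.5% of the 26751 genes tested. The members' median log2 fold change was 0.50, against 0.00 over all genes. In the other 3 groups together 53 members were higher in WAT and 3 lower, against 44.7% and 25.1% of all genes, and the members' median of 0.24 was below that of all genes, 0.33. So the sign of the distance from the median of all genes differed between the 2 tests, and that difference was not itself tested.

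On the scale of all 16 libraries, Rps27a averaged 165 ± 25 CPM in WAT and 79.3 ± 23 CPM in liver of fl/fl mice on vehicle (SD, n = 2 each; log2 fold change 1.06, adjusted p = 0.0015 in edgeR). Rps26, which contacts the messenger RNA upstream of the codon being read, averaged 212 ± 14 CPM in WAT and 108 ± 3.3 CPM in liver (SD, n = 2 each; 0.97, adjusted p = 2e-06 in edgeR). In the other 3 groups it averaged 181 ± 9.9 CPM in WAT and 112 ± 9.8 CPM in liver (SD over 6 libraries each; 0.70, adjusted p = 9.1e-08 in edgeR). Rplp0 averaged 548 ± 33 CPM in WAT and 383 ± 14 CPM in liver of those groups (SD over 6 libraries each; 0.52, adjusted p = 3.4e-08 in edgeR). The 3 members lower in WAT of the other 3 groups were Rpl22, with 70.2 ± 13 CPM in WAT and 87.1 ± 7.8 in liver (-0.32, adjusted p = 0.0037), Rps6, with 321 ± 18 in WAT and 351 ± 7.7 in liver (-0.13, adjusted p = 0.0032), and Rps3 (-0.11, adjusted p = 0.0116). By library totals, which moved the median of all genes to 1.43, all 3 were higher in WAT (0.78, 0.97 and 0.99). The mitochondrial share differs between tissues as given above, and its part was not tested. With the trend on GC content and length removed, the direction in the other 3 groups flipped, with 3 members higher and 77 lower in WAT and medians of -1.17 and -0.55 over members and all genes. Of the 26751 genes tested, 7712 were then higher and 13520 lower.

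**Figure D4:**
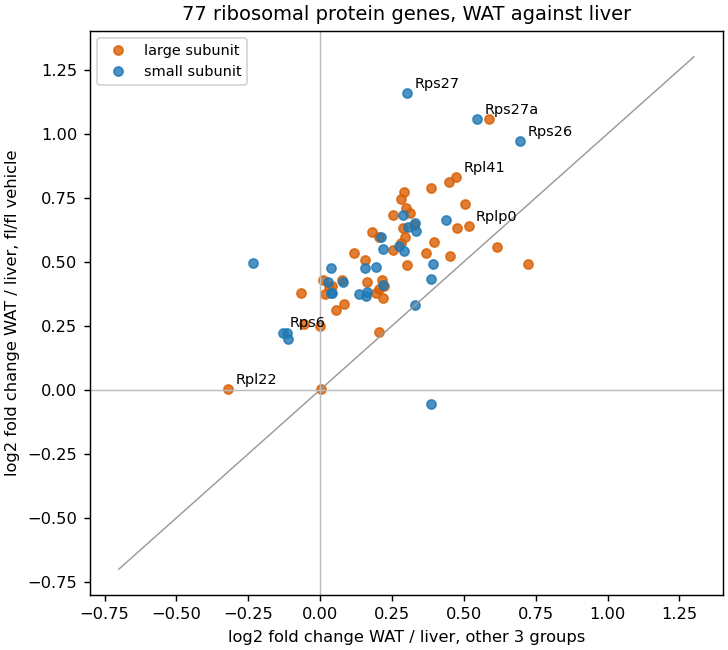
Log2 fold change of WAT over liver (edgeR, 16 libraries) for 77 ribosomal protein genes, with the other 3 groups on the horizontal axis and fl/fl mice on vehicle on the vertical axis. Each point is a gene, and the diagonal marks equal values. Most points lie above the diagonal, Rps26 and Rps27a are far to the upper right, and Rpl22 and Rps6 are below 0 on the horizontal axis. Rps27 is high on the vertical axis but did not pass the test.

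The 3 paralogs showed the widest gap between tissues. As summed counts over all counts, in CPM without TMM scaling, Rpl10l had 20.5 (6861 counts) in WAT of the other 3 groups and 0 counts in liver of the same groups, so it was at least 2238-fold higher in WAT, with a floor of 3 counts over the liver group. Rpl39l had 16.1 in WAT and 0.0306 (10 counts) in liver, a ratio of 527 (95% interval 286 to 1098, exact for the liver count and covering counting error only). Rpl3l had 2.09 in WAT and 0.0336 in liver (62.3, 34.8 to 125). In fl/fl mice on vehicle the WAT levels were 0.367 for Rpl10l, 0.367 for Rpl39l and 0.705 for Rpl3l, and liver had 0.0769, 0.0673 and 0.0481. The spermatid markers in liver summed to 0.62 to 2.9 CPM, with 8 of 11 markers at 0 in both fl/fl vehicle liver libraries.

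Near-identical copies set how far single members can be read. At 90% identity over at least 100 bases, 76 of the 80 members have at least 1 annotated copy, and the tables list 1137 such copies, 866 of them with counts. Windows from 3 such pairs are printed because the reads of these genes cannot be assigned with certainty. Rps27 and its intronless copy Rps27rt are the same over all 252 coding bases. Rpl7a and its copy Rpl7a-ps11 differ at 2 of 798 bases, and Rps27a and Rps27a-ps2 at 1 of 467. Coding bases 1 to 90 are shown for the Rps27 pair, 97 to 186 for the Rpl7a pair and 286 to 375 for the Rps27a pair, with differing bases in capitals and gene positions in GRCm38:
Rps27, gene at chr3:90212522-90213651, minus strand: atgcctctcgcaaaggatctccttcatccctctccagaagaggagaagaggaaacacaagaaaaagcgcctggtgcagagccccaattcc
Rps27rt, gene at chr9:114982366-114982739, minus strand: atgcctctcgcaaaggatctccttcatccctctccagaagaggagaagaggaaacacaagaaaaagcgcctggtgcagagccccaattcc
Rpl7a, gene at chr2:26910764-26913318, plus strand: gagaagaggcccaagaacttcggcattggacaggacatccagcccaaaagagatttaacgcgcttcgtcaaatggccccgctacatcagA
Rpl7a-ps11, gene at chrX:166854211-166855011, plus strand: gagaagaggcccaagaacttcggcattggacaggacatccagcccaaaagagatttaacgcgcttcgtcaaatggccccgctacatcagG
Rps27a, gene at chr11:29545846-29548109, minus strand: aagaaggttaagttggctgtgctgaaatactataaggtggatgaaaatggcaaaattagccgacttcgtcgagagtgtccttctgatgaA
Rps27a-ps2, gene at chr9:83409660-83410126, plus strand: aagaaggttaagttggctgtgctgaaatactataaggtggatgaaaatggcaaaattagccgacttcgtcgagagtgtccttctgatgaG

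Replicates of a group differed in how counts were split between gene and copy. In liver of fl/fl mice on NOX_6_18, Rps27 had 56.5 CPM in replicate 1 and 10.6 CPM in replicate 2, while its copies summed to 13.4 and 51.4 CPM. The sum of gene and copies differed far less between the replicates. Rpl17 had 28.03 and 141 CPM in WAT of fl/fl mice on NOX_6_18, while its copies summed to 254 and 171 CPM. Over all groups the largest ratio between replicates was 5.31 for Rps27, 5.02 for Rpl17 and 2.36 for Rpl7a, against 1.17, 1.14 and 1.12 once copies were added. Of the 77 members with at least 20 counts in every library, 8 had a ratio over 1.5 alone. With copies added 2 did, Rpl41 (2.05) and Rps25 (1.63). Rpl41 has no such copy, so adding copies could not change its ratio. Copies held a median of 83.6% of the summed counts for Rpl17 and 74.9% for Rpl7a, and for Rps27 26.5% with a range over libraries of 18.8 to 82.9%.

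With copies added to each gene before the fit, an alternative chosen after the data had been seen, 58 members were lower and 3 higher in WAT of fl/fl mice on NOX_6_18 than on vehicle. Of the 53 lower by their own counts, 52 were among them. For CKO against fl/fl on vehicle the counts were 35 lower and 3 higher, with 31 of the 34 shared. Rpl17 had a log2 fold change of 0.64 (adjusted p = 0.509 in edgeR) by its own counts and of -0.41 (adjusted p = 0.0070) with copies, so it changed sign, and Rpl7a had 0.00 and -0.28 (adjusted p = 0.0087). Across 77 members the fold change for NOX_6_18 in fl/fl WAT and the share of counts in copies had a Pearson correlation of 0.55, a description over genes of the same 8 libraries. The correlations with transcript GC content and coding length were 0.11 and 0.13. Exons of 37 members overlap those of another annotated gene, 17 of them a named snoRNA, and the sources used here do not give the strand setting of the counting.

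**Figure D5:**
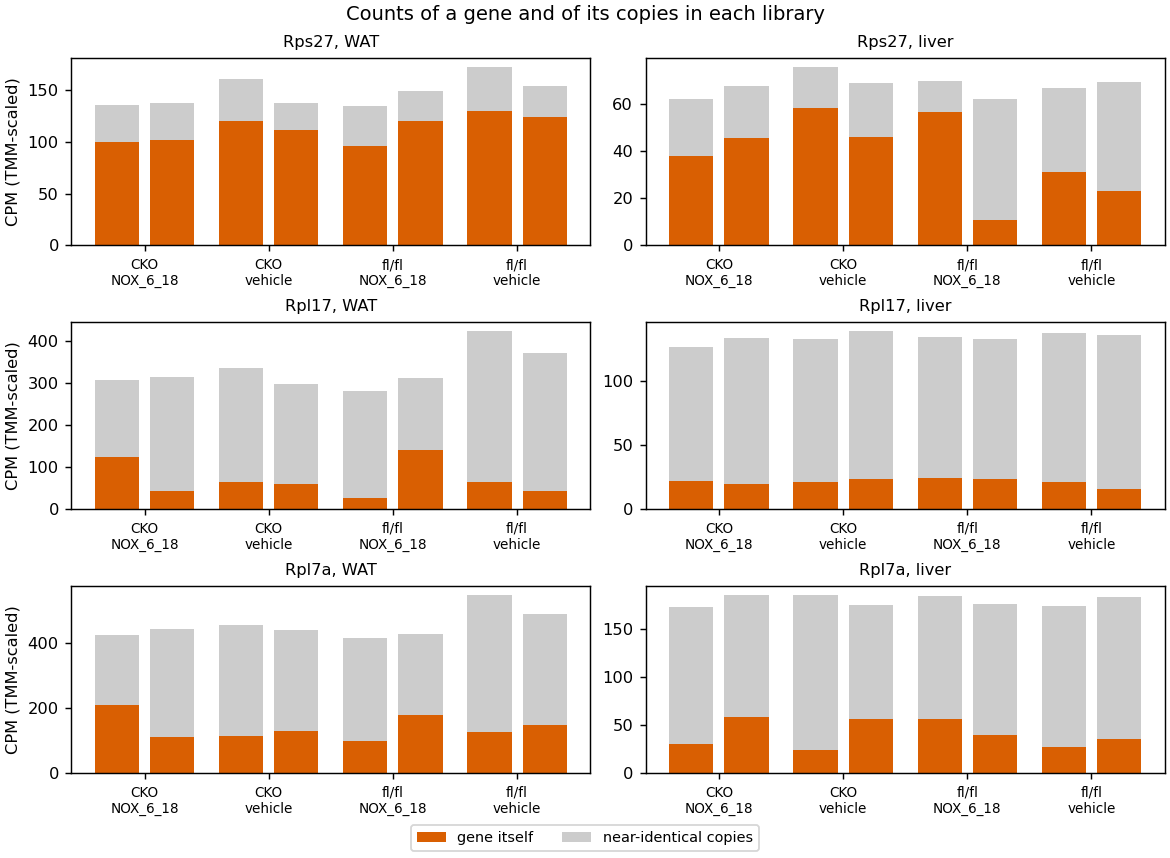
CPM of Rps27, Rpl17 and Rpl7a (orange) and of their near-identical copies (grey, stacked on top) in each library, for WAT on the left and liver on the right. Each bar is 1 library. In liver of fl/fl mice on NOX_6_18 the orange part of Rps27 is 56.5 and 10.6 CPM while the bars are of similar total height.

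Other genes of the translation machinery were taken as whole lists. Their counts stand against 24.6% of all genes higher and 13.2% lower in WAT for NOX_6_18 in fl/fl mice, and 24.4% higher and 12.4% lower for CKO on vehicle. The 8 ribosomal proteins outside the symbol rule had 0 higher and 5 lower members in WAT of fl/fl mice on NOX_6_18 than on vehicle and 0 and 3 in CKO than in fl/fl mice on vehicle, with medians of -0.33 and -0.23. Among them Fau, a small-subunit protein made as a fusion with a ubiquitin-like domain, had 246 ± 7.5 CPM on NOX_6_18 and 316 ± 18 CPM on vehicle (SD, n = 2 each; -0.36, adjusted p = 0.0041 in edgeR). Rps3a1 (-0.32) and Rpl7l1 (-0.34) fell as well. The 18 elongation factors and other TOP genes had 1 higher and 10 lower in fl/fl mice on NOX_6_18 and 1 and 8 in CKO mice. Eef1a1, which brings aminoacyl-tRNA to the ribosome, had 3675 ± 31 CPM on NOX_6_18 and 4661 ± 276 CPM on vehicle (SD, n = 2 each; -0.34, adjusted p = 0.0013 in edgeR), Eif4b fell by 0.30 and Eef2 by 0.19 on the log2 scale. The 17 other initiation factors had 0 higher and 4 lower in fl/fl mice on NOX_6_18 and 0 and 2 in CKO mice, the last a share near that of all genes. Eif4a1, the helicase of the cap-binding complex, fell by 0.39 and Eif2s3x by 0.37 in fl/fl mice on NOX_6_18.

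The remaining lists were mixed, and shares of lower genes near or below those of all genes are not results about a list. Of 78 mitochondrial ribosomal proteins, which work in the organelle's own ribosome, 3 were higher and 12 lower in WAT of fl/fl mice on NOX_6_18 than on vehicle and 5 and 6 in CKO than in fl/fl mice on vehicle, with medians of -0.20 and -0.12, so that the shares lower were near the share of all genes on NOX_6_18 and below it in CKO mice. Mrpl47 (0.63) and Mrpl1 (0.62) rose and Mrpl34 (-0.75) fell on NOX_6_18. Of 30 ribosome biogenesis genes 2 were higher and 2 lower on NOX_6_18, and 2 higher and 5 lower in CKO mice. Wdr12, which acts in the processing of large-subunit RNA, had 28.6 ± 0.94 CPM on NOX_6_18 and 15.7 ± 1.4 CPM on vehicle (SD, n = 2 each; 0.87, adjusted p = 0.00035 in edgeR), while Fbl, which methylates ribosomal RNA, fell (-0.35). Of 17 regulators of ribosomal protein synthesis 3 were higher and 6 lower in each comparison. Larp1, which binds TOP tracts, rose by 0.48 and Mtor by 0.67 on the log2 scale on NOX_6_18, and Eif4ebp1, a repressor of cap-dependent initiation, fell (-0.40). Of 8 snoRNA host genes 0 were called by edgeR, in either comparison, with Snhg8 at -0.28 (adjusted p = 0.0904) on NOX_6_18. In liver, 2 of the 17 regulators were higher and 0 lower in fl/fl mice on NOX_6_18, and 3 higher and 0 lower in CKO mice on vehicle, against 5.52% and 5.8% of all genes called in either direction. Of the mitochondrial ribosomal proteins 1 was higher and 1 lower on NOX_6_18 and 0 were called for CKO, and 1 biogenesis gene was lower for CKO. No gene of the other 4 lists was called by edgeR in these 2 liver comparisons. Mxd1, an antagonist of Myc, had 37.8 ± 1.1 CPM in CKO mice on vehicle and 15.3 ± 1.8 CPM in fl/fl mice on vehicle (SD, n = 2 each; 1.31, adjusted p = 0.00018 in edgeR), and Nmd3, an export adaptor of the large subunit, fell (-0.60, adjusted p = 0.0402). The sums of the liver marker lists given above differed in the same liver contrasts, and their part was not tested.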

How the data were processed

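Total RNA was turned into sequencing libraries by a stranded kit, per the labels' protocols. The submitters' processing notes name HISAT, featureCounts 1.5.0, DESeq 1.8.3 and GRCm38. The authors deposited 1 file of raw counts per gene for each of the 16 libraries. No annotation or strand setting for the counting is given in the sources used here. Of 55421 gene identifiers, 55240 matched GENCODE M21, which supplied symbols, exons and chromosomes, and no pair of libraries held identical values.

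Counts were fitted with edgeR 4.0.16 in R 4.3.3 (TMM, filterByExpr by group, quasi-likelihood test, Benjamini-Hochberg adjustment over all genes fitted, threshold 0.05). WAT (25871 genes), liver (19515) and all libraries (26751) were fitted separately, and all groups in a fit shared its estimate of spread. The scripts were tested on simulated data. SE is the absolute log2 fold change divided by the square root of F. Alternatives used DESeq2 1.42.0, mgcv 1.9.3 for the GC and length trend, and blastn 2.17.0 for copies. The package limma 3.58.1 was loaded with edgeR, and no alternative rested on it. Intervals of counts cover counting error only.

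The members, gene lists and tests were chosen with earlier results of these data known. Beyond paralogs, their parents, stalk genes, Rpsa and Rps6, which were always named, the genes named were the 5 called members with the largest rise and fall in each comparison (3 for tissues and interactions), with a mean of 5 CPM or more in 1 group and no overlap between replicates. To these were added up to 3 called genes of each related list and the 5 highest and lowest per length. Other members named, such as Rpl17, Rpl7a, Rpl28 and the further genes of the WAT interaction, were chosen after their values were seen, and Rps9 and Rpl35 for their start sites. A member that met these rules is not reported here.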

Additional observations from a re-analysis of the deposited data

Results flagged for a closer look

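The test of the interaction in WAT, the change with NOX_6_18 in CKO mice minus the change in fl/fl mice, passed for these members (edgeR, adjusted p under 0.05). It was -5.69 for Rpl10l, -5.29 for Rpl39l and -1.55 for Rpl3l on the log2 scale. It was 0.76 for Rpl22, 0.51 for Rps27a, 0.45 for Rpl31, 0.44 for Rpl34, 0.41 for Rpl10, 0.38 for Rpl36a, 0.34 for Rps3 and 0.31 for Rpl3. In these genes, all but Rpl22, the 2 fl/fl vehicle libraries lay outside the range of the other 6 WAT libraries. The 2 tissues also differed by a test of the difference itself. For NOX_6_18 in fl/fl mice the change was lower in WAT than in liver for 22 members and higher for 2. For CKO against fl/fl on vehicle it was lower for 15 members and higher for 2. Leaving out single libraries gave 6 to 39 lower members in the first of these tests and 2 to 28 in the second.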

How the results depend on the processing

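Counts of members called were recomputed under each alternative, and those not given here stayed within 1.5 times the value reported. Library totals in place of TMM called 13 members for NOX_6_18 in fl/fl WAT, 3 for CKO on vehicle (0 lower, a reversal), 3 for the WAT interaction (0 higher, a reversal) and 4 and 2 (the second with 0 lower, a reversal) for WAT minus liver. The counts over all genes for library totals are given with the results above. Removing a trend on GC content and length called 78 for CKO on vehicle, 77 for the interaction, 77 and 76 for WAT minus liver, and 80 for WAT against liver in the other 3 groups, with 77 lower, a reversal. Of the 25871 genes tested, 4362 were then higher and 11498 lower for CKO on vehicle, and 9499 and 3660 for the interaction. Of 26751, 1366 were higher and 8416 lower for WAT minus liver with NOX_6_18, and 1379 and 8377 with CKO. For WAT against liver in the other 3 groups 7712 were higher and 13520 lower. The causes were not tested. A fit of only the groups compared called 12 for CKO on vehicle in WAT and 1 in liver. DESeq2 called 3, 1 and 4 in liver for CKO on vehicle, CKO on NOX_6_18 and the interaction, and 39 and 31 for WAT minus liver. Leaving out single libraries gave 16 to 66 for NOX_6_18 in fl/fl WAT, 7 to 60 for CKO on vehicle, 2 to 37 for the interaction, 0 to 1 for both fl/fl vehicle comparisons in liver, and 8 to 41 and 4 to 30 for WAT minus liver, and between tissues 53 to 64 in fl/fl vehicle and 55 to 59 in the other 3 groups.

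Within each tissue, replicate numbers gave no sign of pairing between groups, with correlations of same-number deviations from -0.04 to 0.08. The sample names do not say whether WAT and liver libraries of the same number share a mouse, and this was not tested. The fits of all 16 libraries treated the tissues as independent. A replicate block gave 52, 39 and 11 calls for NOX_6_18 in fl/fl WAT, CKO on vehicle and the interaction, and no call count moved by over 1.5 times with it.

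Of the genes named by rule, 18 values changed sign where the main or the alternative result passed the test. Changes of sign where neither passed were not counted. Rpl17, whose sign changed with copies added, was not among the genes checked. Between tissues in the other 3 groups, library totals gave Rps6 0.97, Rpl22 0.78 and Rps3 0.99. The trend removal gave Rplp0 -0.98, Rplp1 -0.87, Rplp2 -0.94, Rpl3 -0.66, Rpl10 -1.19, Rpl39 -1.39, Rpsa -0.69, Rps4x -1.41, Rps26 -1.04, Rps27 -1.35 and Rps27l -1.77, and Rps6 -0.027 in fl/fl vehicle. Leaving out single libraries gave Rps27 -1.35 to 1.06 in liver and -1.29 to 1.14 for WAT minus liver with NOX_6_18, with the change of sign without liver fl/fl NOX_6_18 replicate 1. It gave Rpl39l -0.50 to 6.25 for WAT minus liver with CKO, with the change of sign without liver fl/fl vehicle replicate 2. With mitochondrial counts left out, the group means of the share were 1.97 to 2.17% in WAT, against 1.90 to 2.11% of all counts, and 1.35 to 1.41% in liver, against 0.765 to 0.786%. Lengths from RefSeq coding stretches were not run. Rpl3l, Rpl10l and Rpl39l held 0 to 8 counts per liver library, so differences there were not detectable at this depth.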
